A study of Mus musculus with 9 samples.

Results

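Genes of lysosomal hydrolases and lysosomal membrane proteins, 28 of the 32285 genes measured, were followed through diet-induced obesity, weight loss and renewed obesity in nuclei of mouse epididymal fat. They were chosen by name as genes of soluble lysosomal hydrolases, their activator proteins and lysosomal membrane proteins. The rule uses no measured value, but the choice was made with earlier results of these data known. By role, 9 were grouped as glycosphingolipid genes (Hexa, Gm2a, Gla, Glb1, Galc, Psap, Asah1, Smpd1, Neu1), 4 act on glycoproteins or glycogen (Man2b1, Manba, Fuca1, Gaa) and 6 on glycosaminoglycans (Gusb, Idua, Ids, Sgsh, Galns, Arsb). The 9 include the genes of acid ceramidase (Asah1), acid sphingomyelinase (Smpd1) and a sialidase (Neu1), which are not enzymes of glycosphingolipids alone. The 3 protein genes are Tpp1 and Ppt1, which act on proteins or acylated proteins, and Grn, the precursor of the granulins, which is no enzyme. The other 6 encode membrane proteins (Lamp1, Lamp2, Scarb2, Cd63, Laptm5, Mcoln1). Psap (chr10:60277627-60302597), Gla (chrX:134588149-134601125), Cd63 (chr10:128900989-128912822), Galns (chr8:122578242-122611463) and Gusb (chr5:129989011-130003049, all GRCm38), on which most of the results turn, are protein-coding genes like the rest, and reads of their exons and introns were counted. Glb1 overlaps Tmppe on the same strand, so its counts are less certain. All 28 were measured, and all 28 passed the filter on low counts in each comparison.

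Lysosomes are acidic compartments in which enzymes cut glycolipids, glycoproteins, glycosaminoglycans and proteins that reach them by endocytosis, phagocytosis or autophagy. Most of the soluble enzymes are tagged with mannose 6-phosphate in the Golgi and carried by receptors to the lysosome, and loss of single enzymes causes storage diseases in which the uncut substrate piles up. In obese fat, macrophages gather around dying adipocytes and take up their lipid, and lipid-associated macrophages (LAMs), marked by Trem2, Gpnmb and Cd9, are known for a high lysosomal content.

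Epididymal fat of male C57BL/6J mice was profiled by single-nucleus RNA sequencing in 9 diet groups. Each group was 1 library of nuclei pooled from 5 mice, so a group had no replicate. The controls stayed on chow and were 18 (C), 26 (CC) and 39 (CCC) weeks old, with C on the low-fat control diet and CC and CCC moved to standard chow, by the methods of the study. H, 18 weeks old, had spent 12 weeks on a high-fat diet (HFD), and HH, 31 weeks old, 25 weeks. HC and HHC lost weight on 8 weeks of chow after 12 and 25 weeks of HFD, and were 26 and 39 weeks old. CCH, 30 weeks old, met HFD for the first time for 4 weeks after 26 weeks on chow, and HCH, also 30 weeks old, had 12 weeks of HFD, 8 weeks of chow and 4 weeks of HFD again. To have a test at all, C, CC and CCC were taken as replicates of a chow state, H and HH of an HFD state and HC and HHC of a weight-loss state, so the p-values below measure the spread between these pools, which includes age and diet length. Both HFD libraries carry the set code S075 and both weight-loss libraries the set code S019, while chow has C in the first and CC and CCC in the second. The codes are taken here to stand for sequencing sets.

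The libraries held 22599619 (CCC) to 66615262 (HHC) UMIs (unique molecular identifiers, each standing for 1 captured RNA molecule). Of 91687 barcodes, 76356 lay within the limits of the study, and 66151 of these (86.6%) were put in a cell class by markers and expression profiles that include no member. That share was lowest in CCC (62.4%) and CC (67.4%) and highest in H (95.2%). The classes carry "-like" because they rest on markers and were cut from a score, near whose cut lay 0.524% of the nuclei. Nuclei with clear markers of a second class, 1.62% to 6.50% of a library, were left out and no doublet caller was run, and any pair of libraries shared 8 to 55 barcodes, at most 0.493% of a library. Macrophage-like nuclei numbered 1439, 360 and 354 in C, CC and CCC, 5521 and 5726 in H and HH, 1183 and 2867 in HC and HHC, 1389 in CCH and 3145 in HCH. LAM-like nuclei made up 2.64%, 1.67% and 7.06% of them in C, CC and CCC, 74.1% and 66.8% in H and HH, 60.6% and 64.2% in HC and HHC, 4.54% in CCH and 49.9% in HCH. The macrophage-like class was thus mostly other macrophages in chow and CCH and mostly LAM-like in H, HH, HC and HHC, while 13 macrophage markers summed to 11890.5 to 15065 CPM (UMIs scaled to a common total per class and library) in chow and 4767 to 6284 CPM in the HFD and weight-loss libraries.

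The promoters are shown first because lysosomal genes are known targets of TFEB and its relatives, which bind a palindrome called the CLEAR element. In RefSeq windows of GRCm38.p6 from 250 bases before to 50 after the start, present for 26 of the 28 members (not Asah1 and Galns), the core TCACGTGA of the element was in 2 of 26 (7.69%) against 1.12% of 27025 genes, the full element, with a G before and a C after the core, in 0 of 26 against 0.370%, and the E-box CACGTG nested in both in 6 of 26 (23.1%) against 8.09% of all genes. Each motif reads the same on both strands. The 6 members with an E-box are printed as 30 bases around the longest match, which is in capitals, on the strand of the gene.
Gla, chrX:134601215-134601244, - strand: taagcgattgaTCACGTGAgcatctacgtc
Mcoln1, chr8:3500462-3500491, + strand: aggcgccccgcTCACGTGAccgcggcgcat
Lamp1, chr8:13159088-13159117, + strand: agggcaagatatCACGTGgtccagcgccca
Glb1, chr9:114401018-114401047, + strand: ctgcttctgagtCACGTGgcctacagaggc
Gaa, chr11:119267811-119267840, + strand: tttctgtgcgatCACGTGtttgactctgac
Sgsh, chr11:119355522-119355551, - strand: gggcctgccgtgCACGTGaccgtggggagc
The Gla match began 228 bases before the RefSeq start of its gene and that of Mcoln1 46 bases before its own, and the Lamp1 window held 4 E-boxes. For Gla and Mcoln1 the RefSeq start is not the gene start in GENCODE, from which the gene coordinates above were taken, so distances from that start differ. A match describes letters only. Of these 6 genes, Gla and Lamp1 were among those that rose in macrophage-like nuclei on HFD, while Mcoln1, Glb1, Gaa and Sgsh were not.

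Over all nuclei within the limits, 18 of the 28 members rose on HFD against chow and 0 fell (edgeR quasi-likelihood test, adjusted p under 0.05 over all genes tested), where 16.6% of all genes tested were called higher and 12.9% lower. By the same test 0 members were lower at an unadjusted p under 0.05, and DESeq2 also called 18 higher and 0 lower. Here and below, shares of all genes called are those of the edgeR test at an adjusted p under 0.05. They are not given for an unadjusted p or for DESeq2, so such counts cannot be read against them. The median member changed by 1.18 on the log2 scale, beside -0.002 for all genes. The summed level of the members was 1550.1, 1511 and 1860.0 CPM in C, CC and CCC, 5544 and 4991 in H and HH, 2519.6 and 6279 in HC and HHC, 1873 in CCH and 4242 in HCH. Both HFD libraries, HHC and HCH lay well above chow, HC stood in between, and CCH sat just above the highest chow library. Both HFD libraries lay above all chow libraries for 24 members and below them for 0, where 40.9% and 23.9% of all genes with at least 50 UMIs did so. Against chow, 8 members rose in weight loss and 0 fell, where 4.1% and 2.31% of all genes were called higher and lower. The test called 0 members lower at an unadjusted p under 0.05, and DESeq2 called 13 higher and 0 lower. Both weight-loss libraries lay above chow for 14 members and below it for 1, Smpd1 (16.1% and 19.6% of all genes with at least 50 UMIs).

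In sums over all nuclei, more nuclei of a type and more RNA per nucleus cannot be told apart. Macrophage-like nuclei held 18.7%, 16.8% and 15.2% of the member UMIs of classed nuclei in C, CC and CCC, 70.9% and 58.9% in H and HH, 43.7% and 56.8% in HC and HHC, 30.7% in CCH and 47.0% in HCH. Their share of all UMIs was 8.53% to 11.0% in chow, 60.0% and 47.7% in H and HH, and 25.7% and 43.4% in HC and HHC. In all 9 libraries these nuclei held more of the member UMIs than of all UMIs. The count of members called on HFD fell to 1 without H, 4 without HH, 9 without CC and 3 with the chow library of the same sequencing set alone, and that in weight loss to 0 without CC, 1 without C or HHC, 3 without H or HH, 4 without CCC and 1 with chow of the same set, while it was 14 without HC.

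Within libraries, the members leaned towards macrophages. Comparing the macrophage-like with all other classed nuclei of the same library, with the library as a block, 22 of 28 members were higher in macrophage-like nuclei and 0 lower, where 29.3% of all genes were called higher and 38.2% lower. At an unadjusted p under 0.05 there were 0 lower, while DESeq2 called 21 higher and 1 lower. Galc, which removes galactose from galactosylceramide, was higher in 9 of 9 libraries by 2.96- to 5.03-fold (log2 2.07 ± 0.09, adjusted p = 2.1e-08, here and below with ± SE). Hexa, which encodes an enzyme that cuts GM2 ganglioside, was higher in 9 of 9 libraries by 2.09- to 4.42-fold (log2 1.76 ± 0.12, adjusted p = 3.5e-07). Gusb, beta-glucuronidase, was higher by 2.42- to 4.40-fold in 9 of 9 (log2 1.75 ± 0.09, adjusted p = 6.1e-08), and Asah1, acid ceramidase, by 1.95- to 3.43-fold in 9 of 9 (log2 1.53 ± 0.11, adjusted p = 3.7e-07). These 4 enzymes stood apart in each library whatever its diet. Galns, which removes sulfate from keratan sulfate and chondroitin sulfate, had a ratio that ran from 0.483 to 2.68 and was above 1 in 5 of 9 libraries. Arsb, Gaa, Gm2a, Ids, Scarb2 and Smpd1 were not called, and Gaa, the acid glucosidase of glycogen, was below the other nuclei in 9 of 9 libraries, by ratios of 0.583 to 0.929.

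On HFD, 14 of the 28 members rose in macrophage-like nuclei and 0 fell, where 19.9% of all genes tested were called higher and 18.1% lower. At an unadjusted p under 0.05, 17 were higher and 2 lower, and DESeq2 called 14 higher and 0 lower. The median member changed by 0.81 on the log2 scale, beside 0.04 for all genes. By role, 5 of 9 glycosphingolipid genes, 2 of 4 glycoprotein or glycogen genes, 3 of 6 glycosaminoglycan genes, 2 of 3 protein genes and 2 of 6 membrane genes rose. Both HFD libraries lay above all 3 chow libraries for 19 members and below them for 1, Arsb, where 41.5% and 22.5% of all genes with at least 50 UMIs did so.

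**Figure D1:**
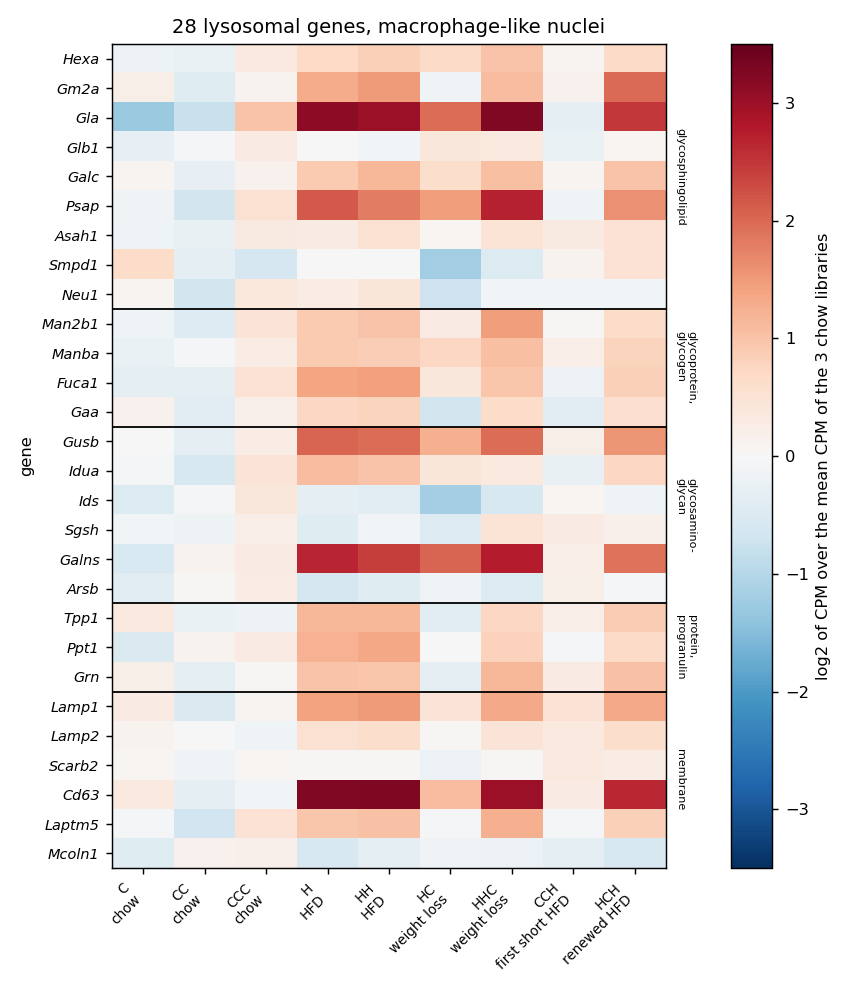
Levels of the 28 members in macrophage-like nuclei of the 9 libraries, drawn as log2 of the level over the mean of the 3 chow libraries and grouped by role. The strongest rises are those of Gla, Cd63, Galns, Psap and Gusb in H, HH, HC and HHC, and in HCH Gm2a stands with them, behind Cd63 and Gla, while CCH looks like chow for these genes.

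Among the glycosphingolipid genes, Gla, the alpha-galactosidase A that cuts globotriaosylceramide and is lacking in Fabry disease, changed most. Its level in macrophage-like nuclei was 1.81, 2.63 and 8.99 CPM in C, CC and CCC, 39.2 and 36.4 in H and HH, 17.3 and 42.2 in HC and HHC, 3.54 in CCH and 25.1 in HCH. The chow values rest on 6, 3 and 7 UMIs, and the HFD libraries lay above each of them (HFD against chow: log2 3.31 ± 0.55, adjusted p = 0.0034). Psap, which encodes prosaposin, the precursor of the 4 saposins that lift lipids out of membranes for the hydrolases, held 32.3% of all member UMIs. Psap was at 499.99, 351 and 784 CPM in C, CC and CCC, 2425 and 1883 in H and HH, 1489 and 3551 in HC and HHC, 487 in CCH and 1640.4 in HCH. No HFD or weight-loss library overlapped with chow (HFD: log2 1.84 ± 0.37, adjusted p = 0.0068), and HHC was the highest of the 9. Gm2a, the activator that presents GM2 ganglioside for cutting, was at 20.5, 13.1 and 19.3 CPM in C, CC and CCC, 43.1 and 49.6 in H and HH, 16.0 and 37.1 in HC and HHC, 19.5 in CCH and 70.0 in HCH. H and HH lay above chow (log2 1.21 ± 0.34, adjusted p = 0.023), HC lay within the chow range, and HCH was the highest.

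The other 2 that rose in this role did so by less. Galc went from 106, 81.4 and 111 CPM in the chow libraries to 187 and 223 in H and HH (log2 0.89 ± 0.19, adjusted p = 0.0087) and Hexa from 152, 147 and 218 CPM in the chow libraries to 279 and 307 in H and HH (log2 0.62 ± 0.19, adjusted p = 0.031), with no overlap of the groups. The 4 remaining genes were not called: Asah1 differed by 0.27, Neu1, a sialidase, by 0.19, Glb1, the lysosomal beta-galactosidase, by -0.17, and Smpd1, acid sphingomyelinase, by -0.30 on the log2 scale.

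Of the glycoprotein and glycogen genes, Fuca1, which removes fucose from glycoproteins, was at 46.3, 47.3 and 83.5 CPM in C, CC and CCC, 153 and 158 in H and HH, 78.1 and 115 in HC and HHC, 51.1 in CCH and 106 in HCH. H and HH were the highest of the 9 libraries (log2 1.29 ± 0.25, adjusted p = 0.0060), and HC lay within the chow range. Manba, beta-mannosidase, was at 82.4, 92.8 and 116 CPM in C, CC and CCC, 183 and 175 in H and HH, 161 and 201 in HC and HHC, 113 in CCH and 165 in HCH. All HFD, weight-loss and HCH libraries lay above chow, and CCH did not (log2 0.74 ± 0.18, adjusted p = 0.012). Man2b1, the alpha-mannosidase of the same route (log2 0.82 ± 0.32, adjusted p = 0.071), and Gaa (log2 0.57 ± 0.36, adjusted p = 0.24) did not pass the test.

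The glycosaminoglycan genes split. Galns was at 6.62, 10.5 and 11.6 CPM in C, CC and CCC, 60.6 and 51.3 in H and HH, 38.9 and 64.4 in HC and HHC, 11.3 in CCH and 35.9 in HCH. The HFD and weight-loss libraries lay far above chow and CCH fell within it (log2 2.49 ± 0.30, adjusted p = 0.0012). Gusb was at 66.5, 51.6 and 78.4 CPM in C, CC and CCC, 268 and 255 in H and HH, 156 and 252 in HC and HHC, 75.7 in CCH and 189.7 in HCH, with the same order of groups (log2 1.85 ± 0.22, adjusted p = 0.0011). Idua, which removes iduronic acid from heparan and dermatan sulfate, was at 13.5, 9.63 and 19.3 CPM in C, CC and CCC, 30.1 and 28.4 in H and HH, 19.1 and 17.8 in HC and HHC, 11.7 in CCH and 23.3 in HCH. Only H, HH and HCH exceeded the highest chow library (log2 0.92 ± 0.28, adjusted p = 0.030).

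The other 3 glycosaminoglycan genes, all sulfatases, had estimates below 0 and did not pass the test. Arsb, the N-acetylgalactosamine 4-sulfatase, was at 79.1, 104 and 122 CPM in C, CC and CCC, 67.6 and 75.6 in H and HH, 94.1 and 73.6 in HC and HHC, 118 in CCH and 96.2 in HCH, with both HFD libraries below all chow libraries (log2 -0.65 ± 0.24, adjusted p = 0.060). It was called lower without C (log2 -0.76) and without HHC (log2 -0.62). Ids, iduronate 2-sulfatase, differed by -0.46 and Sgsh, heparan N-sulfatase, by -0.38 on the log2 scale.

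Among the protein genes, Ppt1, which strips fatty acids from cysteines, was at 41.8, 63.9 and 72.0 CPM in C, CC and CCC, 137 and 151 in H and HH, 59.8 and 103 in HC and HHC, 56.0 in CCH and 94.7 in HCH. H and HH were the highest (log2 1.16 ± 0.26, adjusted p = 0.010), and HC lay among the chow libraries. Tpp1, a tripeptidyl peptidase, was at 73.1, 49.0 and 51.4 CPM in C, CC and CCC, 129.7 and 129 in H and HH, 44.9 and 95.2 in HC and HHC, 68.1 in CCH and 108 in HCH. H and HH were again the highest, and HC was the lowest of all 9 (log2 0.97 ± 0.30, adjusted p = 0.032). Grn, the precursor of the granulins, did not pass the test (log2 0.81 ± 0.33, adjusted p = 0.086).

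Of the membrane genes, Cd63, a tetraspanin of late endosomes and lysosomes, was at 68.6, 42.9 and 50.1 CPM in C, CC and CCC, 505 and 514 in H and HH, 115 and 429.8 in HC and HHC, 65.5 in CCH and 333 in HCH. H and HH lay above every other library, and HC was nearer to chow than to them (log2 3.05 ± 0.45, adjusted p = 0.0022). Lamp1, a heavily glycosylated protein that lines the lysosomal membrane, was at 162, 92.8 and 143 CPM in C, CC and CCC, 355 and 369 in H and HH, 179.8 and 335 in HC and HHC, 189.6 in CCH and 333 in HCH. The HFD libraries lay above chow (log2 1.28 ± 0.27, adjusted p = 0.0083). Its relative Lamp2 (0.40), the enzyme receptor Scarb2 (-0.12), Laptm5, a membrane protein of blood cells (0.88), and the calcium channel Mcoln1 (-0.57) were not called, with log2 differences in brackets.

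**Figure D2:**
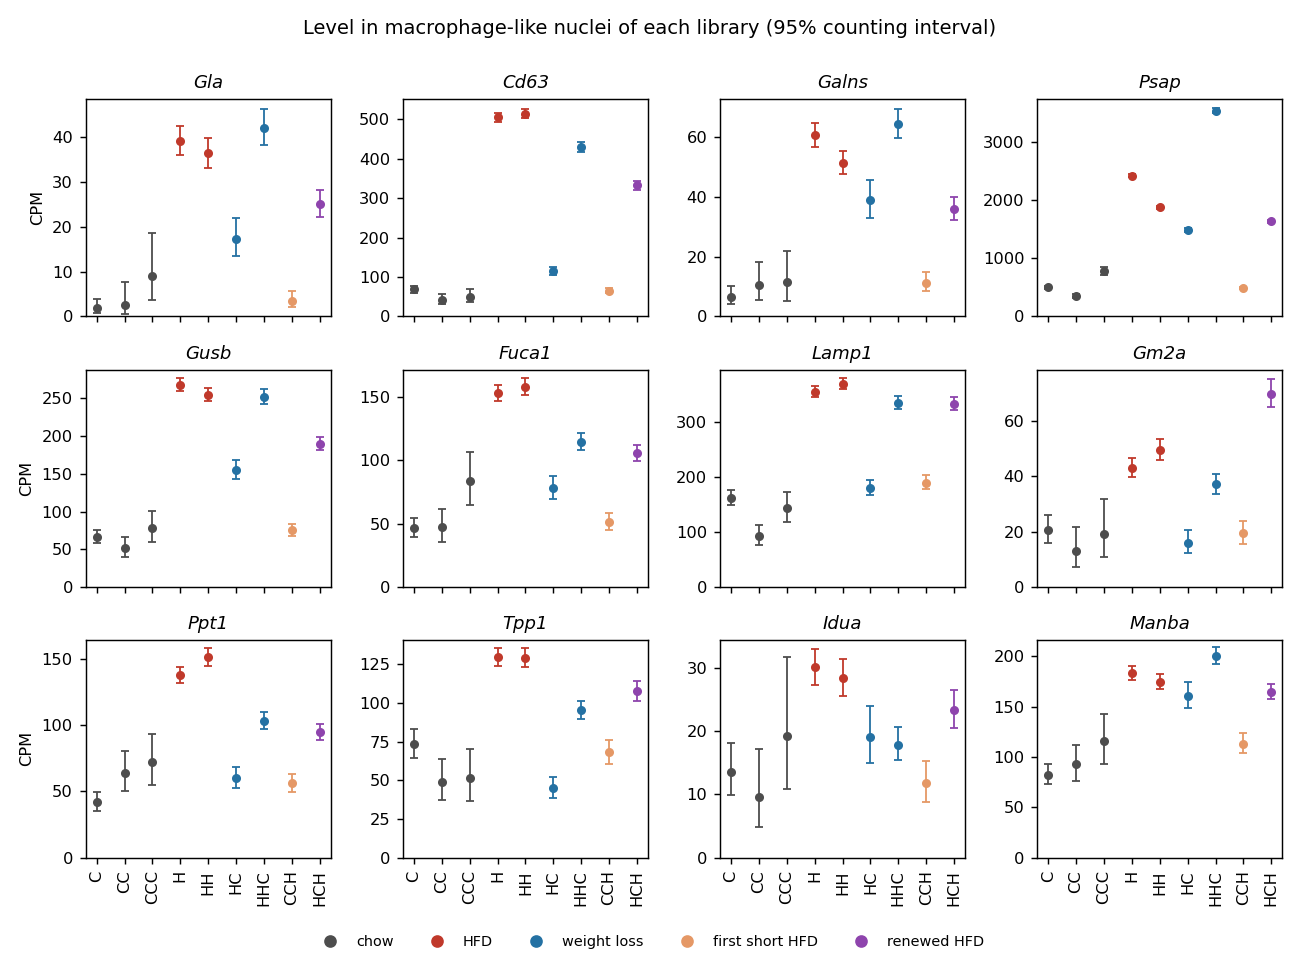
Level, in CPM, of the 12 members with the largest change in macrophage-like nuclei among those called on HFD or after weight loss, 1 point per library and coloured by diet state. The HFD points lie above the 3 chow points in all 12 panels, while HC falls among the chow points for Fuca1, Gm2a, Ppt1 and Idua, below them for Tpp1 and a little above them for Lamp1.

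With the chow library of the same sequencing set alone, which gave the same calls as a term for the set, 7 of the 14 calls on HFD remained: Gla, Cd63, Galns, Gusb, Fuca1, Ppt1 and Manba. The count was 7 without HH and 9 without H, and Gla, Cd63, Galns, Gusb and Fuca1 were called under all 14 alternatives.

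After weight loss, 8 members remained higher than chow in macrophage-like nuclei and 0 were lower, where 5.98% of all genes tested were called higher and 4.09% lower. At an unadjusted p under 0.05, 11 were higher and 1 lower, and DESeq2 called 9 higher and 0 lower, without shares of all genes for these counts. With the libraries paired by age (CC with HC, CCC with HHC), these 8, Lamp1, Laptm5 and Man2b1 were called higher and Ids lower. That fit rests on these libraries alone, so its calls lean on a spread estimated over all genes. The shares of all genes called in it are not given here, so its calls cannot be read against them. The median member differed by 0.50 on the log2 scale, beside -0.0003 for all genes. This comparison shares its chow libraries with that of HFD, so the estimates are set side by side without a test of their likeness. On the log2 scale, Gla was 3.31 on HFD and 3.09 after weight loss, Galns 2.49 and 2.50, Psap 1.84 and 2.17, Gusb 1.85 and 1.61, and Cd63 3.05 and 2.24. Smaller estimates of the same sign were 0.74 and 0.89 for Manba, 0.62 and 0.83 for Hexa, and 0.89 and 0.82 for Galc. The adjusted p-values after weight loss ran from 0.0021 for Galns to 0.031 for Galc over these 8.

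The other 6 that rose on HFD were not called after weight loss. Their log2 values on HFD and after weight loss were 1.28 and 0.91 for Lamp1, 1.29 and 0.72 for Fuca1, 1.21 and 0.53 for Gm2a, 1.16 and 0.46 for Ppt1, 0.92 and 0.40 for Idua, and 0.97 and 0.20 for Tpp1. Both weight-loss libraries lay above all chow libraries for 10 members and below them for 1, Ids, where 19.9% and 15.9% of all genes with at least 50 UMIs did so. By role, 4 of 9 glycosphingolipid genes, 1 of 4 glycoprotein or glycogen genes, 2 of 6 glycosaminoglycan genes, 0 of 3 protein genes and 1 of 6 membrane genes were called.

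**Figure D3:**
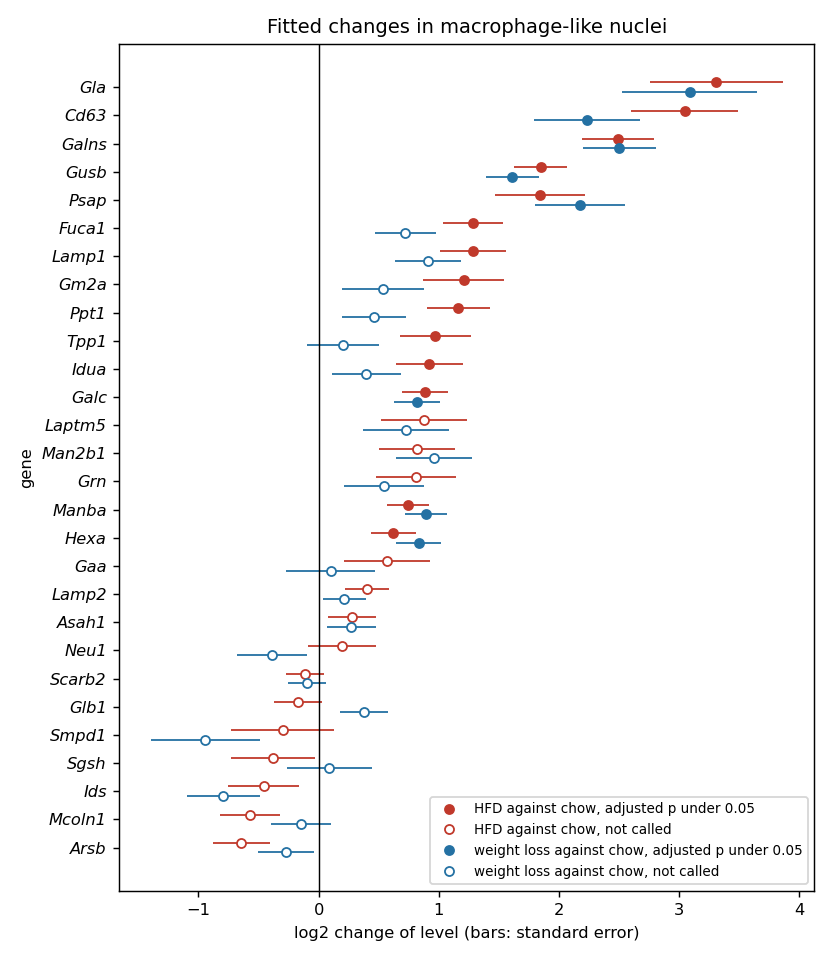
Estimated log2 change of each member in macrophage-like nuclei on HFD and after weight loss, each against the same 3 chow libraries, with bars of 1 SE. Gla, Galns, Psap, Gusb and Cd63 lie far to the right in both, whereas Tpp1 and Ppt1 are at 0.20 and 0.46 after weight loss.

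The weight-loss libraries differed from each other. Cd63 was 2.67-fold above CC in HC (95% interval 1.98 to 3.66, counting error only) and 8.58 (95% interval 6.26 to 12.1) times CCC in HHC. Grn was 1.00 (95% interval 0.831 to 1.22) times CC in HC and 2.16 (95% interval 1.81 to 2.60) times CCC in HHC. Psap, by contrast, was 4.24 (95% interval 3.83 to 4.71) times CC in HC and 4.53 (95% interval 4.18 to 4.92) times CCC in HHC, so it was high in both. The estimate for Cd63 after weight loss was 1.12 on the log2 scale without HHC, when it was not called, and 2.90 without HC. HC had 12 and HHC 25 weeks of HFD before weight loss, and each has its own age and pool, so these cannot be told apart. Without HHC 4 members were called (Gla, Galns, Psap, Gusb) and without HC 12. There were 4 without CC, 5 without C, and 4 with chow of the same set alone (Galns, Psap, Gusb, Manba), and Psap, Gusb and Galns were called under all 15 alternatives.

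The LAM-like and other macrophage-like nuclei were compared within 6 libraries that held at least 50 of each (H, HH, HC, HHC, CCH and HCH), with the library as a block. Of the 28 members, 7 were higher in LAM-like nuclei and 4 lower, where 21% of all genes tested were called higher and 20.7% lower. The median member differed by -0.07 on the log2 scale, beside -0.006 for all genes. DESeq2 called 6 higher and 4 lower. Each of the 11 that were called moved the same way in 6 of 6 libraries, and 9 were called under all 11 alternatives, the exceptions being Cd63, lost under DESeq2, no upper limit on genes and without HC, HHC or CCH, and Manba, lost without HC, HHC or HCH.

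Higher in LAM-like nuclei were Gla (log2 1.28 ± 0.10, adjusted p = 4.1e-08), Galns (log2 1.23 ± 0.12, adjusted p = 9.0e-07), Psap (log2 0.95 ± 0.12, adjusted p = 1.0e-05) and Gusb (log2 0.91 ± 0.09, adjusted p = 6.6e-07), and by less Fuca1 (log2 0.38 ± 0.07, adjusted p = 0.00064), Cd63 (log2 0.34 ± 0.13, adjusted p = 0.048) and Manba (log2 0.21 ± 0.08, adjusted p = 0.040). In LAM-like against other macrophage-like nuclei, Gla was at 44.8 against 19.7 CPM in H, 44.2 against 18.4 in HH, 22.0 against 8.24 in HC, 53.1 against 20.9 in HHC, 9.70 against 3.25 in CCH and 35.6 against 12.99 in HCH. The gap was 2.27- to 2.99-fold, widest in CCH, where the level in LAM-like nuclei rests on 2 UMIs (exact 95% interval 1.18 to 35.1 CPM), while the level itself differed between libraries in both subclasses. Psap was at 2648 against 1644 CPM in H, 2108 against 1366 in HH, 1844 against 812 in HC, 4261 against 2175 in HHC, 1635 against 433 in CCH and 2048 against 1176 in HCH. The ratio was widest in CCH, at 3.78-fold, and narrowest in HH, at 1.54-fold.

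Lower in LAM-like nuclei were Sgsh (log2 -0.88 ± 0.14, adjusted p = 0.00014), Asah1 (log2 -0.56 ± 0.07, adjusted p = 1.7e-05), Scarb2 (log2 -0.53 ± 0.09, adjusted p = 0.00028), the receptor that carries glucocerebrosidase to the lysosome, and Arsb (log2 -0.47 ± 0.10, adjusted p = 0.0014). Asah1 was at 166 against 267 CPM in H, 191 against 300.4 in HH, 144 against 193 in HC, 192 against 263 in HHC, 165 against 195 in CCH and 186 against 258 in HCH. In each library the LAM-like value was the lower one, by ratios of 0.623 to 0.848. The sulfatases Sgsh and Arsb were lower in the nuclei in which the sulfatase Galns was higher.

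**Figure D4:**
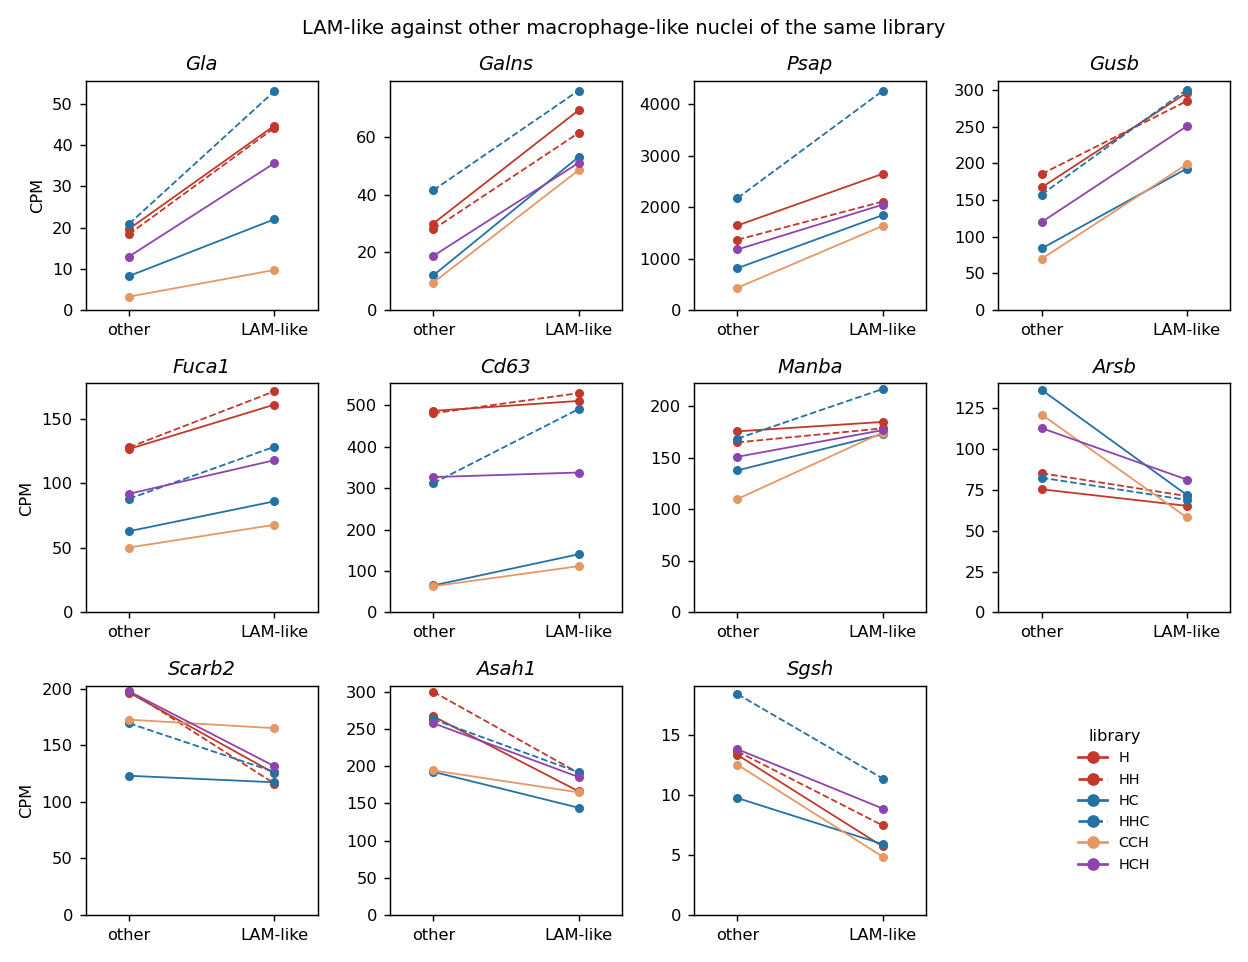
Level in LAM-like nuclei compared with that in other macrophage-like nuclei of the same library, for each of the 6 libraries. Gla, Galns, Psap and Gusb are higher and Sgsh, Asah1, Scarb2 and Arsb lower in LAM-like nuclei in all 6.

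A test within the other macrophage-like nuclei, added after the data were seen, asked whether the HFD change was also found outside the LAM-like nuclei. There 18 members rose on HFD and 0 fell, where 12.8% of all genes were called higher and 11.4% lower, and 0 were lower at an unadjusted p under 0.05. DESeq2, fits with a library left out and a term for the sequencing set were not run in these nuclei. The largest changes were 3.42 for Gla, 3.08 for Cd63, 1.83 for Psap and 1.83 for Galns on the log2 scale. After weight loss 4 were higher than chow and 0 lower, where 1.94% and 0.854% of all genes were so called (0 were lower at an unadjusted p under 0.05): Gla (log2 3.18 ± 0.50, adjusted p = 0.013), Psap (log2 1.89 ± 0.32, adjusted p = 0.018), Galc (log2 0.89 ± 0.17, adjusted p = 0.028) and Hexa (log2 0.82 ± 0.18, adjusted p = 0.045). The 8 LAM markers (Trem2, Gpnmb, Mmp12, Itgax, Cd9, Fabp5, Spp1 and Emp1) moved with the same groups in these nuclei, with a summed level of 143.1 to 244.0 CPM in chow, 2189.9 and 2723 CPM in HH and H, and 1144 and 3462 CPM in HC and HHC. Spp1 was at 0 in CC and CCC, and the part of these markers in the result was not tested. Cd9, Fabp5 and Emp1 did not meet the rule for seeding the LAM class. That rule asks for a level at least 2 times that in any class other than macrophages and dendritic cells. The sum is therefore not a measure of LAM RNA alone, here or in the classes below.

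Renewed and first HFD each had 1 library, so only their ratio with a counting interval is given. In macrophage-like nuclei, 21 of 28 members had an interval wholly above 1 in HCH against CCH and 1 below, where 36.9% and 18.5% of all genes with at least 20 UMIs did so, and the median member ratio was 1.62 beside 1.17 for all genes. Gla was 7.08 (95% interval 4.28 to 12.6) times as high in HCH, Cd63 5.08 (95% interval 4.51 to 5.74) and Gm2a 3.59 (95% interval 2.88 to 4.54). Psap followed at 3.37 (95% interval 3.22 to 3.52), Galns at 3.19 (95% interval 2.37 to 4.36) and Gusb at 2.51 (95% interval 2.23 to 2.82). Arsb was the 1 member with its interval below 1, at 0.812 (95% interval 0.731 to 0.904). CCH, with its 4 weeks of HFD, lay above the chow range for Lamp1, Lamp2, Scarb2, Grn and Sgsh and inside it for the other members, Gla, Cd63, Psap, Gusb and Galns among them. LAM-like nuclei were 49.9% of the macrophage-like nuclei in HCH and 4.54% in CCH, and both libraries are of set S075.

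The same ratios were taken for the other pairs of the diet design. In H against C, 21 members had an interval above 1 and 2 below (42.6% and 25.4% of all genes), and in HH against CC 21 and 2 (35.4% and 21.4%). HC against CC gave 15 and 1 (19.1% and 22% of all genes), and HHC against CCC 17 and 2 (16.6% and 14.4%). These intervals cover counting error only. HH (31 weeks old, set S075) and CC (26 weeks old, set S019) differ in age and set code, so diet cannot be told apart from these in that pair. The libraries of each other pair share age and set code. The median member ratio was 1.81, 2.39, 1.31 and 1.54 in these 4 pairs, beside 1.20, 1.21, 0.982 and 1.05 for all genes.

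Progenitor-like nuclei, the fibroblast-like cells from which adipocytes form, changed as well. On HFD 14 members rose in them and 0 fell, where 11.1% of all genes tested were called higher and 7.38% lower, with 0 lower at an unadjusted p under 0.05 and 14 higher and 0 lower by DESeq2. The median member changed by 0.80 on the log2 scale, beside -0.02 for all genes. Both HFD libraries lay above all chow libraries for 24 members and below them for 0 (37.5% and 15.7% of all genes with at least 50 UMIs). Laptm5 was at 15.3, 8.94 and 8.05 CPM in C, CC and CCC, 91.7 and 113 in H and HH, 31.7 and 127 in HC and HHC, 19.97 in CCH and 88.4 in HCH. Chow was lowest and H, HH and HHC highest, without overlap (log2 2.94 ± 0.48, adjusted p = 0.0073). Cd63 was at 58.3, 47.8 and 50.2 CPM in C, CC and CCC, 404 and 509 in H and HH, 77.3 and 326 in HC and HHC, 56.4 in CCH and 291 in HCH, and of the HFD and weight-loss libraries HC was nearest to chow (log2 2.91 ± 0.43, adjusted p = 0.0054).

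The glycosphingolipid genes Gla, Psap and Gm2a were among the 6 largest changes. Gla was at 1.998, 1.58 and 1.24 CPM in C, CC and CCC, 13.4 and 14.1 in H and HH, 5.67 and 16.0 in HC and HHC, 1.45 in CCH and 7.38 in HCH (log2 2.76 ± 0.48, adjusted p = 0.0084), and Psap at 215, 222 and 224 CPM in C, CC and CCC, 1058 and 1015 in H and HH, 509.9 and 1851 in HC and HHC, 199 in CCH and 763 in HCH (log2 2.02 ± 0.37, adjusted p = 0.010). For both, the weight-loss libraries also lay above chow, with HHC the highest of the 9. Gm2a went from 11.4, 11.0 and 8.05 CPM in the chow libraries to 28.9 and 45.4 in H and HH (log2 1.62 ± 0.43, adjusted p = 0.030), and was 7.93 in HC and 27.1 in HHC. Lamp1 went from 72.5, 60.5 and 74.9 CPM in the chow libraries to 241 and 293 in H and HH (log2 1.73 ± 0.27, adjusted p = 0.0064), and was 88.4 in HC and 197 in HHC. The other 8 that rose were Gusb, Grn, Man2b1, Tpp1, Hexa, Ppt1, Fuca1 and Asah1, by 0.75 to 1.61 on the log2 scale.

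After weight loss 3 members were higher in progenitor-like nuclei and 0 lower, where 0.949% of all genes were called higher and 0.207% lower: Laptm5 (log2 2.69 ± 0.48, adjusted p = 0.032), Gla (log2 2.57 ± 0.48, adjusted p = 0.039) and Psap (log2 2.31 ± 0.37, adjusted p = 0.021). At an unadjusted p under 0.05, 14 were higher and 0 lower, and DESeq2 called 6 higher and 0 lower, without shares of all genes for these counts. Both weight-loss libraries lay above chow for 15 members and below it for 0 (15% and 9.36% of all genes with at least 50 UMIs). The 8 LAM markers, of which Cd9, Fabp5 and Emp1 did not meet the seeding rule above, moved with the groups here too. Their summed level in progenitor-like nuclei was 212, 245 and 289 CPM in C, CC and CCC, 2375 and 2164 in H and HH, 988 and 3395 in HC and HHC, 263 in CCH and 1049 in HCH, with Spp1 at 0 in CC alone. The 13 macrophage markers summed to 295.8 to 771.0 CPM, with Fcgr1 at 0 in CC and CCC. The part of macrophage RNA in these results was not tested. Laptm5 in progenitor-like nuclei stood at 16.4%, 14.6% and 5.85% of its macrophage level in C, CC and CCC and at 47.7% and 56.6% in H and HH. In the same libraries the 13 macrophage markers stood at 2.66% to 4.52% of their macrophage level in chow and at 9.23% and 9.41% in H and HH, the 8 LAM markers at 34.9% to 137% in chow and 29.1% and 35.2% in H and HH, and Cd63 at 85.0% to 112% in chow and 80.1% and 99.0% in H and HH. The macrophage level of the 13 macrophage markers was itself lower in H and HH than in chow. Their share therefore depends on both levels, and whether their level in progenitor-like nuclei rose cannot be read from it.

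With chow of the same sequencing set alone, 0 members were called in progenitor-like nuclei in either comparison. The HFD count was 5 without H or HH, 6 without CC and 9 without CCC. The weight-loss count was 0 without any 1 chow library, 1 without HHC, 2 without H or HH and 8 without HC.

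Adipocyte-like nuclei numbered 178 (H) to 2377 (C). Without the upper limit on genes they numbered 587 in H, against 178 with it, 1019 against 454 in HH, 2369 against 658 in CCH, 1403 against 348 in HCH and 3028 against 2377 in C, so the limit took out unequal shares by library. On HFD 8 members rose in them (9 without the limit) and 0 fell, where 12.2% of all genes tested were called higher and 7.2% lower, with 0 lower at an unadjusted p under 0.05 and 8 higher and 0 lower by DESeq2. The median member changed by 0.32 on the log2 scale, beside -0.04 for all genes. Both HFD libraries lay above all chow libraries for 16 members and below them for 1, Ids (35.7% and 19.5% of all genes with at least 50 UMIs). Laptm5 was at 5.29, 5.22 and 8.30 CPM in C, CC and CCC, 46.3 and 56.9 in H and HH, 24.6 and 68.5 in HC and HHC, 14.5 in CCH and 58.7 in HCH, with chow lowest, CCH next and the other 5 libraries above (log2 2.82 ± 0.39, adjusted p = 0.0054). Cd63 was at 36.8, 34.7 and 38.7 CPM in C, CC and CCC, 224 and 253 in H and HH, 64.7 and 214 in HC and HHC, 43.4 in CCH and 207 in HCH (log2 2.43 ± 0.38, adjusted p = 0.0077). Fuca1 was at 28.4, 32.1 and 48.4 CPM in C, CC and CCC, 228 and 231 in H and HH, 42.3 and 57.6 in HC and HHC, 45.7 in CCH and 92.7 in HCH, so that H and HH stood far above the rest (log2 2.43 ± 0.23, adjusted p = 0.0040).

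Fuca1 was the 1 member called on HFD in adipocyte-like nuclei under all 14 alternatives. Its level there in H and HH exceeded that in the macrophage-like nuclei of the same libraries, 153 and 158 CPM. Psap went from 189, 212 and 223 CPM in the chow libraries to 814 and 547 in H and HH (log2 1.45 ± 0.36, adjusted p = 0.029), Gusb from 13.7, 17.5 and 25.9 CPM in the chow libraries to 66.3 and 55.4 in H and HH (log2 1.44 ± 0.39, adjusted p = 0.035) and Grn from 39.2, 41.2 and 43.6 CPM in the chow libraries to 123 and 118 in H and HH (log2 1.28 ± 0.36, adjusted p = 0.039). None of the 3 overlapped with chow. Man2b1 and Lamp1 also rose, by 1.20 and 1.19 on the log2 scale.

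After weight loss 1 member, Laptm5, was higher (log2 2.82 ± 0.38, adjusted p = 0.032) and 0 lower, where 0.227% of all genes were called higher and 0% lower. At an unadjusted p under 0.05, 10 were higher and 1 lower, and DESeq2 called 3 higher and 0 lower, without shares of all genes for these counts. Both weight-loss libraries lay above chow for 10 members and below it for 3, Idua, Gaa and Ids (9.99% and 14.1% of all genes with at least 50 UMIs). The summed level of the 8 LAM markers in adipocyte-like nuclei was 77.4, 208 and 238 CPM in C, CC and CCC, 1330.3 and 991 in H and HH, 734 and 2381 in HC and HHC, 118 in CCH and 653 in HCH, with none at 0, and the 13 macrophage markers summed to 336.5 to 762.1 CPM, highest in CCC and lowest in HH. The part of macrophage RNA in these results was not tested. On HFD the count was 1 without HH, 3 without H or CC, 5 without C and 3 with chow of the same set, and the 1 call after weight loss was lost without C, CC, H, HH or HHC and with chow of the same set, while 5 were called without HC.

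**Figure D5:**
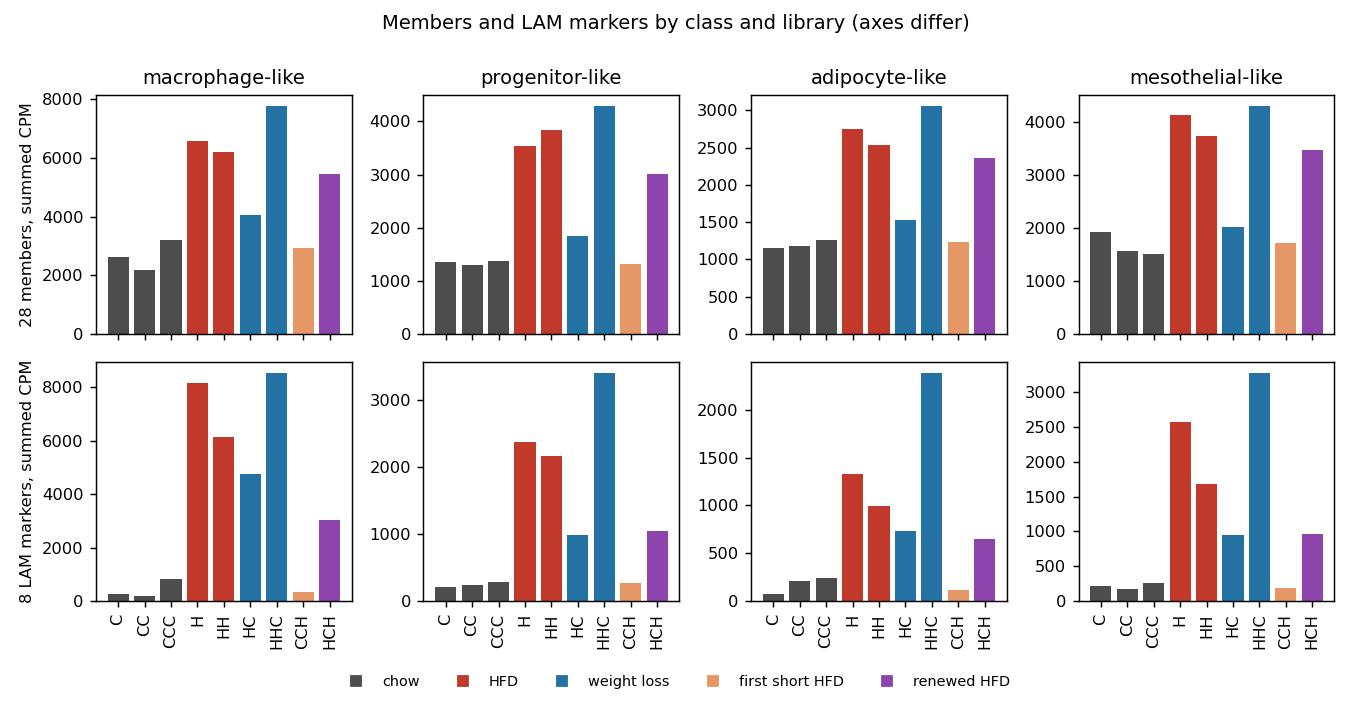
Summed level of the 28 members and of the 8 LAM markers, in CPM, by class and library. In macrophage-like, progenitor-like and adipocyte-like nuclei both sums are higher in H, HH, HC, HHC and HCH than in chow, and CCH lies near chow.

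The difference between the HFD effects in macrophage-like and progenitor-like nuclei was tested as an interaction, with the library as a block. Of 28 members, 1 had a larger effect in macrophage-like nuclei and 4 a smaller one, where 6.71% and 10.3% of all genes tested did so. These counts lie near the shares over all genes and are not read as a trait of the members. Galns was the first, with a difference of 1.56 on the log2 scale (adjusted p = 0.0034), from effects of 2.49 in macrophage-like and 1.02 in progenitor-like nuclei. Laptm5 (-1.99, adjusted p = 0.0011), Scarb2 (-0.69, adjusted p = 0.012), Arsb (-0.69, adjusted p = 0.020) and Mcoln1 (-0.64, adjusted p = 0.037) had the smaller effects in macrophage-like nuclei. Laptm5 differed by 0.88 in macrophage-like and 2.94 in progenitor-like nuclei. Of the 5, Laptm5 was called under all 13 alternatives, and 2 were called without H, without HH or with a term for the set and 3 without CCC.

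Mesothelial-like and endothelial-like nuclei were tested after the data were seen. In the mesothelial-like class, whose cells line the fat pad, 12 members rose on HFD and 0 fell (8.11% and 3.35% of all genes), with 0 lower at an unadjusted p under 0.05, and 2 were higher after weight loss (0.706%). In endothelial-like nuclei 2 rose on HFD (1.95%) and 0 after weight loss (0% of all genes), where 5 were higher at an unadjusted p under 0.05. The endothelial-like class changed with the filter on nuclei: without the upper limit on genes it held 119 instead of 1121 nuclei in C and 103 instead of 378 in H, while the lymphatic endothelial-like class held 1191 instead of 167 and 336 instead of 62, and 13 members rose on HFD and 0 changed after weight loss. The counts in this class are therefore not firm. In mesothelial-like nuclei 11 and 3 were higher without the limit. The shares of all genes called without the limit are not given here, so the counts without it cannot be read against them. DESeq2, fits with a library left out and a term for the sequencing set were not run in mesothelial-like or endothelial-like nuclei. The 8 LAM markers moved with the groups in both classes, from 173 to 259 CPM in chow, 1677 and 2576 CPM in HH and H and 955 and 3272 CPM in HC and HHC in mesothelial-like nuclei. In endothelial-like nuclei they summed to 296 to 834 CPM in chow, 2973 and 4134 CPM in HH and H and 1105 and 4618 CPM in HC and HHC. In CC alone 1 marker was at 0, Itgax in mesothelial-like and Trem2 in endothelial-like nuclei, and the part of macrophage RNA was not tested.

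The other genes of the lysosomal route in macrophage-like nuclei came from 3 lists chosen by function. Over all genes tested in these nuclei, 19.9% were called higher and 18.1% lower on HFD, and 5.98% and 4.09% after weight loss. Of 24 further lysosomal genes, 10 rose on HFD and 1 fell, and 4 and 1 did so after weight loss, where DESeq2 called 9 and 1. Lipa, the acid lipase that frees cholesterol and fatty acids, had log2 changes of 3.02 on HFD and 2.70 after weight loss. Abhd6, a monoacylglycerol hydrolase, fell by 2.90 and 1.94. Of 6 genes that tag or sort the enzymes, 5 rose on HFD and 2 after weight loss, led by Igf2r, the mannose 6-phosphate receptor, with log2 changes of 4.38 and 3.98. Of the 4 transcription factors of the TFEB family, 0 changed on HFD by edgeR (1 at an unadjusted p under 0.05, and 1 called higher by DESeq2), and Mitf (log2 0.94 ± 0.20, adjusted p = 0.023) and Tfeb (log2 1.10 ± 0.26, adjusted p = 0.033) were higher after weight loss. In LAM-like against other macrophage-like nuclei, Mitf (0.74) and Tfeb (0.75) were higher and Tfec (-0.90) lower on the log2 scale.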

How the data were processed

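The deposited matrices hold counts, the UMIs per gene and barcode that the authors obtained with Cell Ranger 6.1.2 on mm10, introns included, from 10x 3′ libraries. By the methods of the study, free RNA needed no correction, and Seurat 4.1.0 was used downstream. The limits of the study were used (500 to 3000 genes, no more than 40000 UMIs a nucleus), and mitochondrial genes and Malat1 were left out. Nuclei clearly marked for 1 of 12 classes gave class profiles, and each nucleus went to the most likely class when it led by a log-likelihood margin of 10. Members, other lysosomal genes, cathepsins and proton pump subunits were left out of the profiles. This scheme, and the tests in other macrophage-like, mesothelial-like and endothelial-like nuclei, were settled after the data were seen.

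UMIs were summed per library and class and tested with edgeR 4.0.16 (R 4.3.3; TMM, filterByExpr, quasi-likelihood, Benjamini-Hochberg over all genes tested), which was also tested on simulated data. Among 14346 genes simulated for macrophage-like nuclei on HFD against chow, 5.21% of genes changed by a log2 of 1 and 60.8% of those changed by 2 were recovered, and 8.57% of calls fell on unchanged genes. Only 96 and 97 genes were changed in it, where the data had 2860 genes called higher and 2593 lower. The cut on the adjusted p depends on how many genes change, so recovery in the data may differ. For LAM-like against other macrophage-like nuclei (14690 genes) 83.7% and 97.9% were recovered. A member that was not called may thus have changed. SE is that of the log2 change. A member or gene was called at an adjusted p under 0.05. CCH and HCH did not enter the fits of diet states. CPM is the UMIs of a gene scaled to a common total of UMIs for its class in that library. Ratios of 2 libraries carry exact conditional 95% intervals for counting error only. Library totals ran from 22599619 to 66615262 UMIs, so low members such as Gla in chow rest on few UMIs.

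The members and lists were chosen with earlier results of these data known. Up to 12 members were named for macrophage-like nuclei, 6 each for adipocyte-like and progenitor-like nuclei and 4 other genes, by the largest log2 change among those called; 1 of the 4 is not reported here. Alternatives were the DESeq2 1.42.0 Wald test, its size factors, no filter on low counts, no upper limit on genes, 1 more marker, sequencing set as a term or chow of the same set, age as a block (added after the data were seen) and each replicate left out. Coordinates are from GENCODE vM21, which matched 32158 of 32285 gene identifiers, and promoters from RefSeq on GRCm38.p6. Python 3.11.15 was used.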

Additional observations from a re-analysis of the deposited data

Results flagged for a closer look

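For 5 members the effect of HFD differed between macrophage-like and progenitor-like nuclei in a test of the difference itself (edgeR quasi-likelihood, log2, macrophage-like minus progenitor-like), 1 with a larger effect in macrophage-like nuclei and 4 with a smaller one, where 6.71% and 10.3% of all genes tested did so. These counts lie near the shares over all genes, and only Laptm5 was called under all 13 alternatives. The difference was -1.99 for Laptm5, which had risen in progenitor-like nuclei by 2.94 and was not called in macrophage-like nuclei. It was -0.69 for Scarb2, -0.69 for Arsb and -0.64 for Mcoln1, none of which was called on HFD in either class, and 1.56 for Galns, which rose in macrophage-like nuclei. The level of Laptm5 in progenitor-like nuclei moved together with the LAM markers there, and the part of macrophage RNA in it was not tested.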

How the results depend on the processing

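The labels give no replicate numbers. With age as the replicate block, which pairs CC with HC at 26 weeks and CCC with HHC at 39 weeks and leaves out the other libraries, the weight-loss counts were 6 over all nuclei, 12 in macrophage-like (11 higher and 1, Ids, lower), 1 in adipocyte-like and 2 in progenitor-like nuclei. With so few libraries these calls lean on a spread estimated over all genes. On HFD only H and C share an age, so no such fit was made. Of 4424 alternative values for single members, 3947 kept their side of the threshold, 351 lost a call and 126 gained one. None (0) changed direction where the main or the alternative value was called. Changes of direction between values that were not called were not counted. Of the 158 alternative counts of members called, 41 of 78 with a replicate left out and 57 of 80 others stayed within 1.5 times the main count. With chow of the same sequencing set, or equally with the set as a term, 3 members were called on HFD and 1 in weight loss over all nuclei, 7 and 4 in macrophage-like, 3 and 0 in adipocyte-like and 0 and 0 in progenitor-like nuclei, and 2 in the difference between macrophage-like and progenitor-like nuclei with the set as a term. In weight loss, the DESeq2 Wald test called 13 over all nuclei, 3 in adipocyte-like and 6 in progenitor-like nuclei, and no filter gave 7 in adipocyte-like and 9 in progenitor-like nuclei. The cause was not tested. The shares of all genes called under the alternatives of this section are not given here, so its counts of members cannot be read against them. DESeq2 size factors, no upper limit on genes and 1 more marker moved no count by over 1.5 times, except that 13 members were called on HFD in endothelial-like nuclei without the limit.

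With a replicate left out, the counts on HFD ran from 1 to 18 over all nuclei, 7 to 18 in macrophage-like, 1 to 8 in adipocyte-like and 5 to 15 in progenitor-like nuclei. In weight loss they ran from 0 to 14, 4 to 12, 0 to 5 and 0 to 8. For LAM-like against other macrophage-like nuclei they ran from 9 to 11, for macrophage-like against other nuclei from 21 to 23, and for the difference between classes from 2 to 5. An arm left with 1 library was assumed to vary like the other groups. Sequencing set, age and diet length cannot be separated with 1 library a diet group, and 178 adipocyte-like nuclei in H limit its values.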
